A study of Camelus dromedarius with 10 samples.

Results

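AP-1 is a transcription factor that is assembled from pairs of proteins of the FOS and JUN families, and 7 genes encode its main subunits: FOS, FOSB, FOSL1 and FOSL2 on the FOS side, and JUN, JUNB and JUND on the JUN side. These 7 genes were chosen by name, and the gene IDs of 6 of them were found through the symbols that the study pairs with camel gene IDs, out of 22444 gene IDs counted. JUND was not paired with an ID and is not analysed here. The counts come from the supraoptic nucleus (SON), a hypothalamic nucleus whose magnocellular neurones supply the posterior pituitary with vasopressin and oxytocin. Tissue of the rostral SON was punched from the brains of male dromedary camels (Camelus dromedarius) aged 4 to 5 years, and 1 library was made per animal from the nucleus of 1 side. The 5 control camels could drink and eat freely, and the 5 water-deprived (WD) camels had food but no water for 20 days. Punched tissue holds neurones, glia and vessels together, so that in these libraries fewer cells of a type and less RNA per cell cannot be told apart.

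FOS proteins do not form stable pairs with themselves and bind DNA with a partner such as a JUN protein, whereas JUN proteins can also pair with each other. FOS, FOSB, JUN and JUNB are immediate-early genes: their transcription starts within minutes of a stimulus, without new protein synthesis, and FOS in particular is used as a marker of recently active neurones, in the SON after osmotic stimuli among others. FOSL1 and FOSL2 (also called FRA-1 and FRA-2) usually follow later and persist for longer. The subunits differ in strength, with JUN a strong activator and JUNB often a weaker one or an antagonist of JUN.

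Of the 6 genes, 1 (FOS) was higher in WD camels, none was lower, and the other 5 did not pass the test. All 6 had enough counts to be tested. The test was edgeR's quasi-likelihood F test over 14432 genes, and a gene was called at a Benjamini-Hochberg adjusted p of at most 0.05. It called 0.270% of all genes tested higher and 0.229% lower, and the family was picked with the result of FOS already known. At an unadjusted p under 0.05 the count was 2 members (FOS and FOSL2), against 9.31% of all genes. The log2 fold changes of all 6 were above 0, with a median of 0.60, whereas the median over all genes tested was 0.02. Values of single libraries are normalized read counts, the authors' counts divided by a size factor of each library. They are compared between camels for 1 gene at a time, since a longer gene collects more reads.

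**Figure D1:**
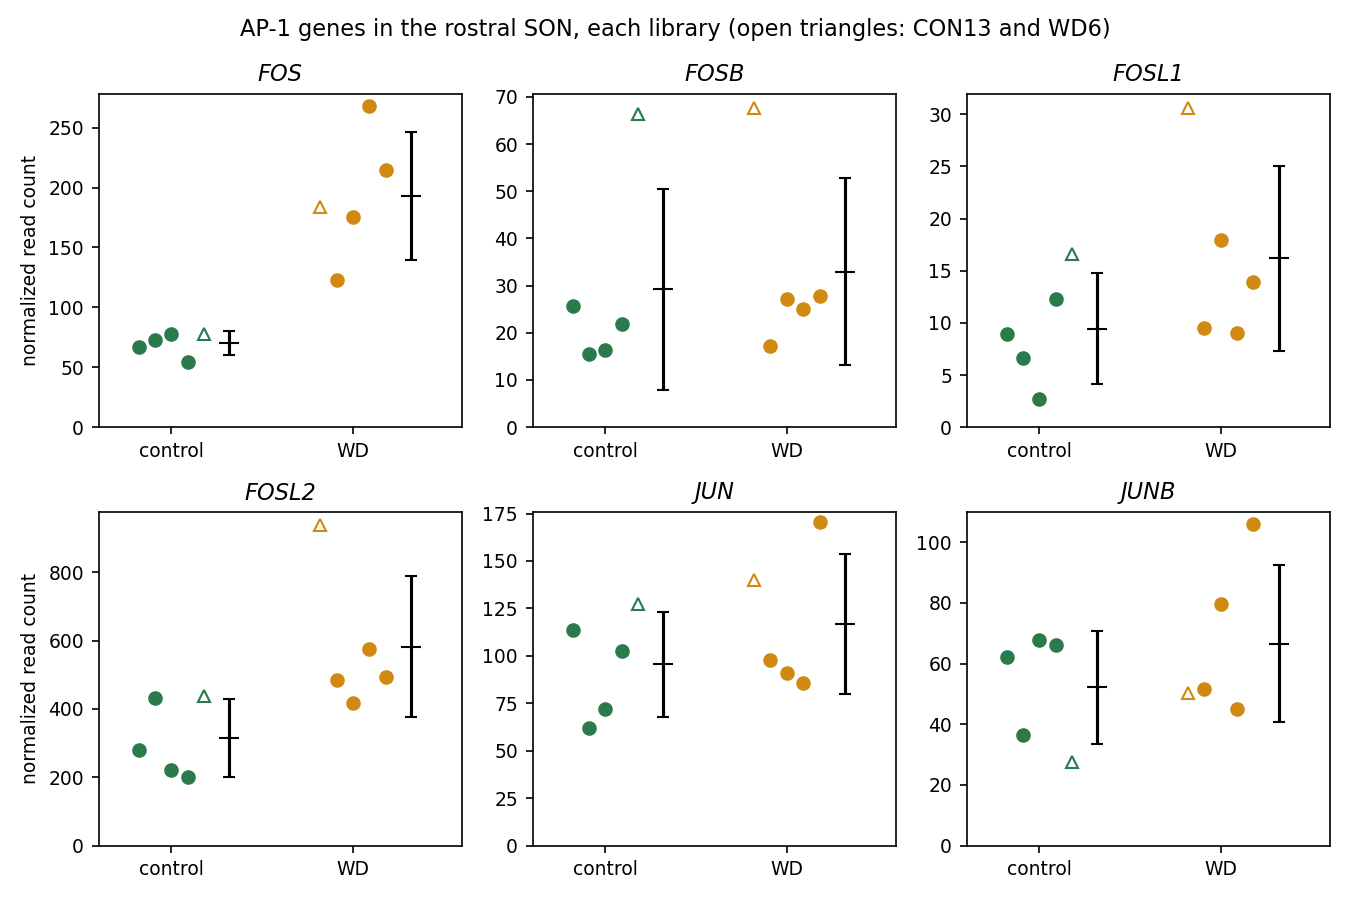
Normalized read count (vertical axis, from 0, a scale of its own per gene) of the 6 AP-1 genes in each of the 5 control and 5 WD libraries. Each point is 1 camel, bars give the mean ± SD, and open triangles mark CON13 and WD6, the libraries with the fewest read pairs. For FOS the 5 WD libraries, from 123 to 268, lie above all control libraries, and for the other 5 genes the groups overlap.

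FOS (ENSCDRG00005001172) encodes the subunit after which the family is named. In control camels it was at 67.2, 73.1, 78.2, 54.6 and 77.6 normalized counts in CON2, CON3, CON4, CON5 and CON13. In WD camels it was at 184, 123, 175, 268 and 215 in WD6, WD7, WD8, WD9 and WD15. The lowest WD library (WD7) was above the highest control library (CON4), a separation in this direction that 1.32% of all genes tested showed. The control mean was 70.1 ± 9.72 and the WD mean 193 ± 53.3 (SD, n = 5 each), and the log2 fold change was 1.48 ± 0.217 (SE), a 2.78-fold rise, with an adjusted p of 0.00313 by edgeR. Its 95% interval ran from 1.02 to 1.93. FOS had the 12th smallest p, and 99.8% of the genes tested had a log2 fold change at or below its own. DESeq2's Wald test, which called 1.27% of 16447 genes, gave an adjusted p of 5.14e-07 and called no other member. With library totals in place of edgeR's TMM scaling, which moves the median log2 fold change of all genes to 0.16, the value was 1.62 but the adjusted p by edgeR was 0.221.

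FOSL2 (ENSCDRG00005012100), the late-acting relative of FOS, rested on the most read pairs of the 6, 1455 in control and 3739 in WD libraries. In control camels it was at 281, 433, 221, 202 and 438 normalized counts, in the order of libraries given for FOS. The WD values were 939.6, 486, 417, 576 and 494. WD8, the lowest WD library, lay below CON3 and CON13, so the groups overlapped, and WD6 stood well above the rest. Its log2 fold change was 0.91 ± 0.260 (SE) with a 95% interval from 0.36 to 1.46, and it did not pass the threshold (adjusted p = 0.194 by edgeR, and 0.0617 by DESeq2's Wald test). With a covariate for depth group, which sets the 5 libraries that are shallowest once the 5 dominant gene IDs are set aside apart from the 5 deepest, it was 1.07 and its adjusted p by edgeR was 0.00511. That fit called 0.845% of all genes higher.

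FOSB (ENSCDRG00005008193) encodes a subunit whose shortened, stable splice form accumulates in neurones under repeated stimulation, and counts per gene do not separate the forms. Control values were 25.7, 15.5, 16.4, 21.9 and 66.5 normalized counts, and WD values 67.7, 17.2, 27.2, 24.98 and 27.7. The highest library of each group, CON13 and WD6, stood at nearly the same level, and the other 8 libraries lay between 15.5 and 27.7. The log2 fold change of 0.33 ± 0.443 (SE) had an interval from -0.60 to 1.26 and an adjusted p of 0.883 by edgeR, and without WD6 it was -0.03.

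FOSL1 (ENSCDRG00005017990) was the least covered member, with 41 read pairs in all control and 91 in all WD libraries. It was at 8.89, 6.65, 2.73, 12.3 and 16.6 normalized counts in control camels. In WD camels it was at 30.6, 9.47, 17.9, 9.01 and 13.9. CON13 was the highest control library and WD6 the highest WD library here too, and CON13 rested on 3 read pairs. A difference was not detected (log2 fold change 0.86 ± 0.561 SE, 95% interval -0.32 to 2.05, adjusted p = 0.690 by edgeR), and with 1 library left out the value ranged from 0.55, without CON4, to 1.10, without CON5.

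JUN (ENSCDRG00005014307), the partner of FOS in the classical AP-1 dimer, was at 114, 62.0, 72.2, 102 and 127 normalized counts in control camels. WD camels had 139.8, 97.7, 90.9, 85.6 and 170.4. The 3 lowest WD libraries (WD7, WD8 and WD9) lay within the range of the control libraries, and WD6 and WD15 lay above it. The means, 95.5 ± 27.7 (SD, n = 5) and 116.9 ± 36.8 (SD, n = 5), differed by less than either SD. The log2 fold change was 0.31 ± 0.252 (SE) with an interval from -0.22 to 0.84 and an adjusted p of 0.762 by edgeR.

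JUNB (ENSCDRG00005022198), the JUN-family member induced with FOS in many cells, was at 62.2, 36.6, 67.8, 66.2 and 27.7 normalized counts in control camels. WD values were 50.3, 51.5, 79.5, 45.05 and 106. WD8 and WD15 were above every control library, and the other WD libraries were within the control range. CON13, the highest control library for FOSB, FOSL1, FOSL2 and JUN, was the lowest of all libraries for JUNB, which rested there on 5 read pairs. Its log2 fold change was 0.27 ± 0.286 (SE), with an interval from -0.34 to 0.87 and an adjusted p of 0.841 by edgeR.

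**Figure D2:**
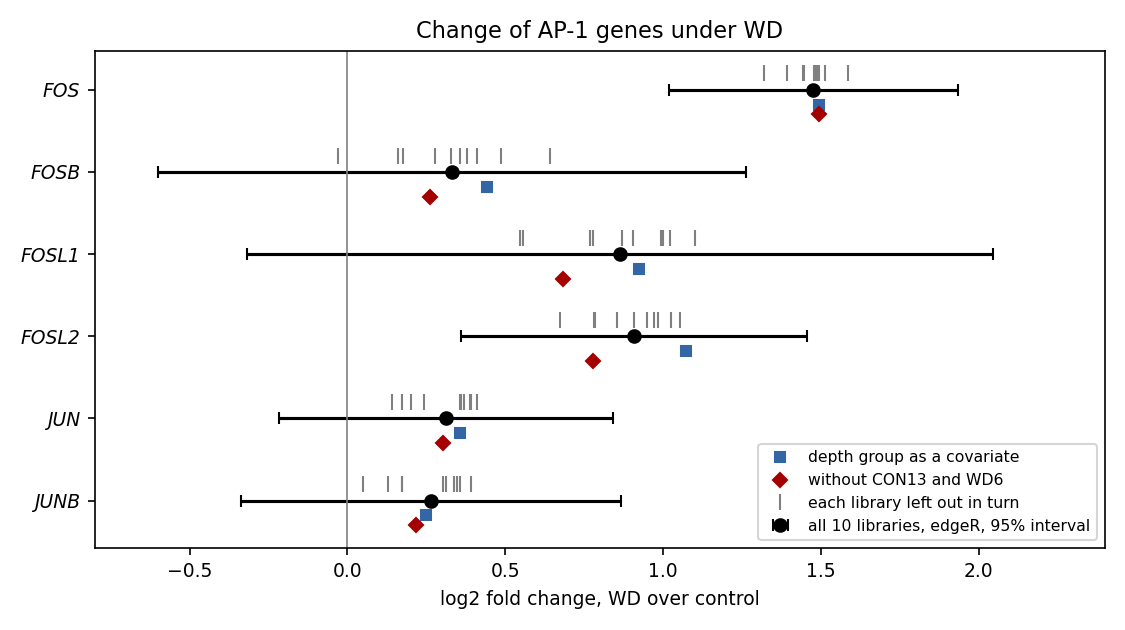
Log2 fold change, WD over control, of the 6 AP-1 genes (horizontal axis). Black points with bars are the edgeR estimates from all 10 libraries with their 95% intervals, grey ticks leave out 1 library each, blue squares use depth group as a covariate, and red diamonds leave out CON13 and WD6. FOS is the member whose interval, from 1.02 to 1.93, lies farthest from 0, and the interval of FOSL2 (0.36 to 1.46) is the only other one that lies above 0.

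A member past the threshold and another one short of it need not differ, so the response of FOS was set against that of each other member within each library. The measure was log2 of FOS over the other gene's normalized count, with a pseudocount of 0.5 added to both. WD and control libraries were compared by a two-sided exact permutation test over 252 assignments, whose smallest possible p is 0.00794, with adjustment over the 5 pairs. The size of such a ratio depends on the lengths of both genes, so that its shift between the groups is what can be read.

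The ratio of FOS to JUN rose in WD camels. On the log2 scale it averaged -0.40 ± 0.53 in control and 0.73 ± 0.57 in WD libraries (SD, n = 5 each), a shift of 1.13 (exact permutation p = 0.00794, adjusted p = 0.0397). All 5 WD libraries, from 0.33 to 1.64, were above all control libraries, from -0.90 to 0.24. The shift of FOS over FOSB was 1.18, with 4 of 5 WD libraries above all controls (exact permutation p = 0.0476, adjusted p = 0.0926). That of FOS over JUNB was 1.06, with 2 of 5 above all controls (exact permutation p = 0.0556, adjusted p = 0.0926). Neither passed after adjustment, but without CON13 and WD6 both did, at 1.18 and 1.23 with an adjusted p of 0.0476 each by the exact permutation test.

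For the FRA genes the shift of FOS was smaller and did not pass. It was 0.52 over FOSL2 (exact permutation p = 0.151, adjusted p = 0.188) and 0.61 over FOSL1 (exact permutation p = 0.325, adjusted p = 0.325), the latter from 0.32, without WD9, to 1.01, without CON4, when 1 library was left out. Over FOSL2, 3 of 5 WD libraries were above all controls, WD6 and 1 other library being within the control range. These 2 tests do not show that FOS and the FRA genes moved alike. With any 1 library left out, the smallest exact p is 0.0159, and the shift of FOS over JUN, from 0.90 to 1.29, then passed in 2 of 10 cases. The groups stay apart for this ratio in each case, so its exact p is always that smallest one. Whether it passes after adjustment over the 5 pairs (adjusted p up to 0.0794, exact permutation test) depends on the other pairs. The number of passes therefore cannot show whether the shift rests on 1 library.

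**Figure D3:**
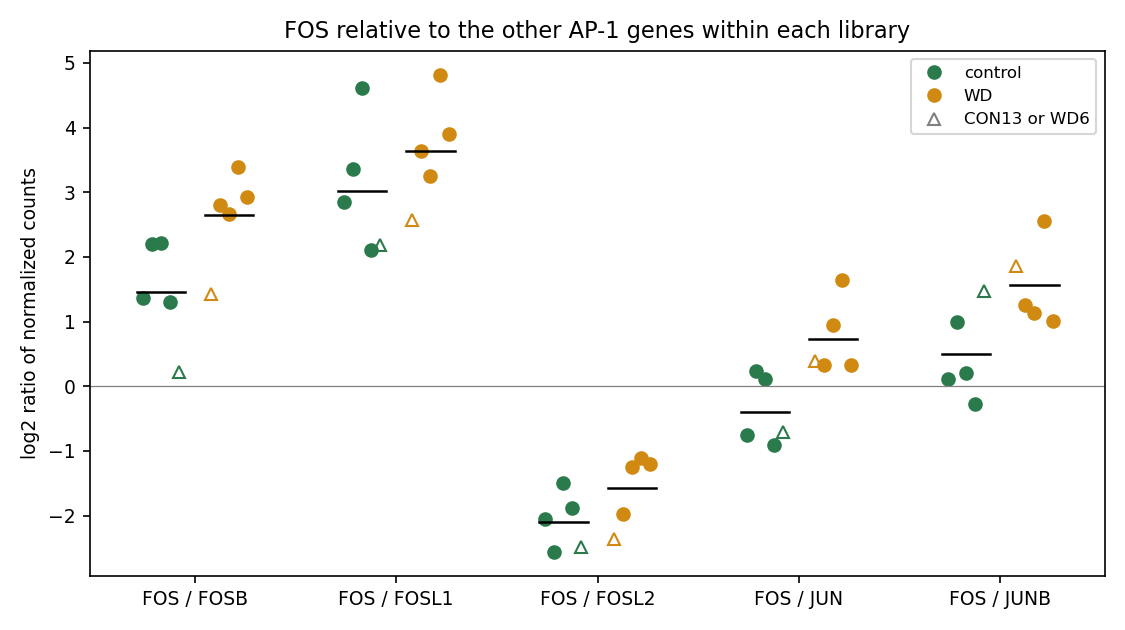
Log2 ratio of the normalized count of FOS to that of each other AP-1 gene (vertical axis) within each library, in green for control and orange for WD, with group means as lines and triangles for CON13 and WD6. The 5 WD libraries lie above the 5 control libraries for FOS over JUN, where the means are -0.40 and 0.73, and the groups overlap for the other 4 ratios.

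Depth was uneven. Between 1665098 and 8126641 read pairs were counted per library, but 5 gene IDs took 27.7% to 76.1% of them. The read pairs left for all other genes were 397495 in CON13 and 1106575 in WD6, against 2078393 to 5872137 in the other 8 libraries. A read pair therefore counted for 5.54 on the normalized scale in CON13, 2.19 in WD6 and 0.41 to 1.11 elsewhere.

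The members did not follow depth alike. With the group means taken out, Pearson's r between log2 level and log2 of the read pairs outside the 5 gene IDs was -0.88 for FOSB, -0.77 for FOSL1, -0.74 for FOSL2, -0.63 for JUN, 0.47 for JUNB and -0.11 for FOS, over 10 libraries that share these 2 shallow ones. For FOSB the level in CON13, 66.5, rested on 12 read pairs, and its exact Poisson 95% interval of 34.4 to 116 overlapped those of CON2, WD6, WD8 and WD15. For FOS the corresponding interval of CON13 was 42.4 to 130.2, on 14 read pairs. These intervals cover counting error only. Without CON13 and WD6 the log2 fold changes by edgeR were 1.49 for FOS (adjusted p = 0.00604), 0.78 for FOSL2 (0.157), 0.69 for FOSL1 (0.637), 0.30 for JUN (0.665), 0.26 for FOSB (0.772) and 0.22 for JUNB (0.796). The call of FOS did not rest on the 2 shallow libraries, and the part of depth in the levels of the other members was not tested.

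The members also varied against each other. FOSB and FOSL1 went together over the 10 libraries (Pearson's r of log2 levels 0.78, and 0.81 with the group means taken out), and both were high in the shallow libraries. FOS and FOSL2 had r = 0.74, which was 0.30 within the groups. FOSL2 and JUNB went opposite ways within the groups (r = -0.75). FOS and JUN, the classical pair, had r = 0.30, and -0.04 within the groups. These are descriptions of 10 libraries that share depth and condition.

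Among 3358 genes with a symbol, the genes most like FOS over the 10 libraries included, by Pearson's r of log2 CPM (counts scaled to an equal library total), PITPNC1 (0.94), ZNF593 (0.92), ECHDC3 (0.92) and MFSD2A (0.90). Those most like FOSL2 were ARHGAP9 (0.93), LIMK2 (0.93) and P4HA3 (0.91). The 3 for JUN were CAMKK2 (0.95), L3MBTL4 (0.92) and ADCK5 (0.92), and for JUNB they were SGK1 (0.91), PIK3CG (0.89) and HIPK1 (0.89). For the thinly covered FOSB they were CASP2 (0.93), EPHA2 (0.91) and IGF1R (0.91), and for FOSL1 SYDE1 (0.90), WNK4 (0.89) and PLK3 (0.88). No gene was among the most like for more than 1 member. With the group means taken out, r fell to 0.66, 0.43, 0.76 and 0.59 for the 4 genes named for FOS, and was 0.84 to 0.95 for the genes of the other members.

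FOS and JUN proteins also pair with other basic leucine zipper proteins of the ATF, BATF and MAF families. Of 14 such genes listed, 13 were paired with an ID and 10 were tested. None passed by edgeR, 2 had an unadjusted p under 0.05 (against 9.31% of all genes), and DESeq2 called 1. The median log2 fold change was 0.27. ATF4, a factor of the integrated stress response, was the 1 called by DESeq2 (log2 fold change 0.72, adjusted p = 0.0445, against 0.172 by edgeR), and edgeR called it with RIN (RNA integrity number) or depth group as a covariate (adjusted p = 0.0106 and 0.0424). ATF2, a partner of JUN, was at 0.02 and the related ATF7 at 0.03 on the log2 fold change scale. JDP2, a repressor that pairs with JUN and competes with FOS, is the next gene after FOS in RefSeq's gene table of the assembly mCamDro1.pat, and BATF follows it. The log2 fold change of JDP2 was 0.34 ± 0.370 (SE, adjusted p = 0.840 by edgeR), that of TMED10, on the other side of FOS, was 0.56 ± 0.263 (SE, adjusted p = 0.531 by edgeR), and BATF had too few counts to be tested. In that table no neighbouring gene overlapped a member.

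Transcription of FOS is switched on through serum response factor with ELK proteins, through CREB and its relatives, and through STAT proteins, and that of JUN also through MEF2 proteins. All 12 of these regulators listed were tested, 1 was higher and none lower by edgeR, and 3 had an unadjusted p under 0.05 (against 9.31% of all genes). The median log2 fold change of the 12 was 0.17. The 1 that rose was CREM, which encodes cAMP-responsive activators and repressors (log2 fold change 1.77 ± 0.266 SE, adjusted p = 0.00313 by edgeR, WD 70.2 to 122 normalized counts, control 5.54 to 37.5). Its lowest control value, in CON13, was a single read pair. Among the other regulators with high CPM, STAT3 was at 0.17 and MEF2D at -0.01 on the log2 fold change scale.

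MAP kinases phosphorylate the ELK proteins and JUN. Of 23 MAP kinases, MAP kinase kinases and ribosomal S6 kinases listed, all were tested and none passed, either by edgeR or by DESeq2. An unadjusted p under 0.05 by edgeR was found for 5, some higher and some lower, against 9.31% of all genes. The median log2 fold change of the 23 was -0.22, with 6 above and 17 below 0. Among those with the highest CPM, MAP2K2 was at -0.42 and MAP2K1 at 0.01. RNA levels say nothing of the phosphorylation through which these kinases act.

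Other immediate-early genes served as a comparison for FOS. Of 19 listed, 16 were paired and 12 tested, 1 was higher and none lower by edgeR, and the median log2 fold change was 0.19. By DESeq2 2 were called, in opposite directions, and 5 had an unadjusted p under 0.05 by edgeR, against 9.31% of all genes. SIK1, a kinase induced by cAMP, rose (log2 fold change 1.27 ± 0.276 SE, adjusted p = 0.0476 by edgeR), from 28.4 to 66.5 normalized counts in control to 78.2 to 155 in WD camels. Its call was lost in 9 of 10 fits with 1 library left out, where its log2 fold change stayed between 1.08 and 1.40. The others with the highest CPM did not pass: the clock gene PER1 was at 0.49 (0.26 without WD6), the nuclear receptor NR4A1 at 0.88 (adjusted p = 0.355 by edgeR) and EGR1, a zinc-finger factor often used as a marker of activity beside FOS, at -0.72 (adjusted p = 0.413 by edgeR). ARC, a synaptic gene induced by activity, lies outside the naming rule and was chosen after its values were seen, as the second gene called by DESeq2. It was at 17.8 to 44.3 normalized counts in control and 4.37 to 10.9 in WD libraries. Its log2 fold change, -1.87 ± 0.446 (SE), was the largest in size on this list, with an adjusted p of 0.0857 by edgeR and 0.00532 by DESeq2.

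The within-library comparison was repeated for these 12 genes after the data had been seen. FOS shifted against 7 of the 12 past the adjusted threshold of the exact permutation test, and 5 of these did so with each library left out, while KLF10 passed in 3 of 10 cases and PER1 in 2. FOS itself had a log2 fold change of 1.48, and the median over all genes tested was 0.02. A shift against a gene that stayed level thus restates the rise of FOS. The share of all genes against which FOS would pass was not computed. The largest shifts were 3.29 against ARC, whose own log2 fold change was -1.87, and 2.92 against NR4A2, which had no read pair in WD6 (adjusted p = 0.0190 each, exact permutation test). That against NR4A2 was 2.39 to 3.39 with other pseudocounts or on CPM, 1.96 without WD6 and 1.82 without CON13 and WD6. Against EGR1 the shift was 2.10 on the log2 scale, from -0.29 ± 0.53 in control to 1.81 ± 0.71 in WD libraries (SD, n = 5 each), and it was upward in 5 of 5 WD libraries relative to all controls (adjusted p = 0.0190, exact permutation test). Against PER1 it was 0.97 (adjusted p = 0.0408, exact permutation test). Shifts of 0.58 against NR4A1 (adjusted p = 0.182) and 0.20 against SIK1 (adjusted p = 0.508) did not pass the exact permutation test, and ranged from 0.38 to 0.80 and from 0.087 to 0.43 with 1 library left out. Without CON13 and WD6, none of the 12 passed after adjustment, the smallest exact p for 4 against 4 libraries being 0.0286, while the shift against EGR1 was 2.52.

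Genes with AP-1 sites known from other species were listed as well. Of 16 listed, 13 were paired, 8 tested, 2 called higher and none lower by edgeR, and the median log2 fold change was 0.24. PDYN, which encodes the opioid precursor prodynorphin, was higher by 1.93 ± 0.220 (SE) on the log2 scale (adjusted p = 3.02e-04 by edgeR). SPP1, which encodes osteopontin, was higher by 1.23 ± 0.245 (SE, adjusted p = 0.0239 by edgeR), a call lost in 7 of 10 fits with 1 library left out. HMOX1, which encodes an inducible haem oxygenase, was at 0.30 (0.059 without CON13 and WD6), PENK, the enkephalin precursor, at 0.06, and PLAU, the urokinase gene, at 0.47 on the log2 fold change scale. No AP-1 binding was measured, and the lists of targets come from other tissues.

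**Figure D4:**
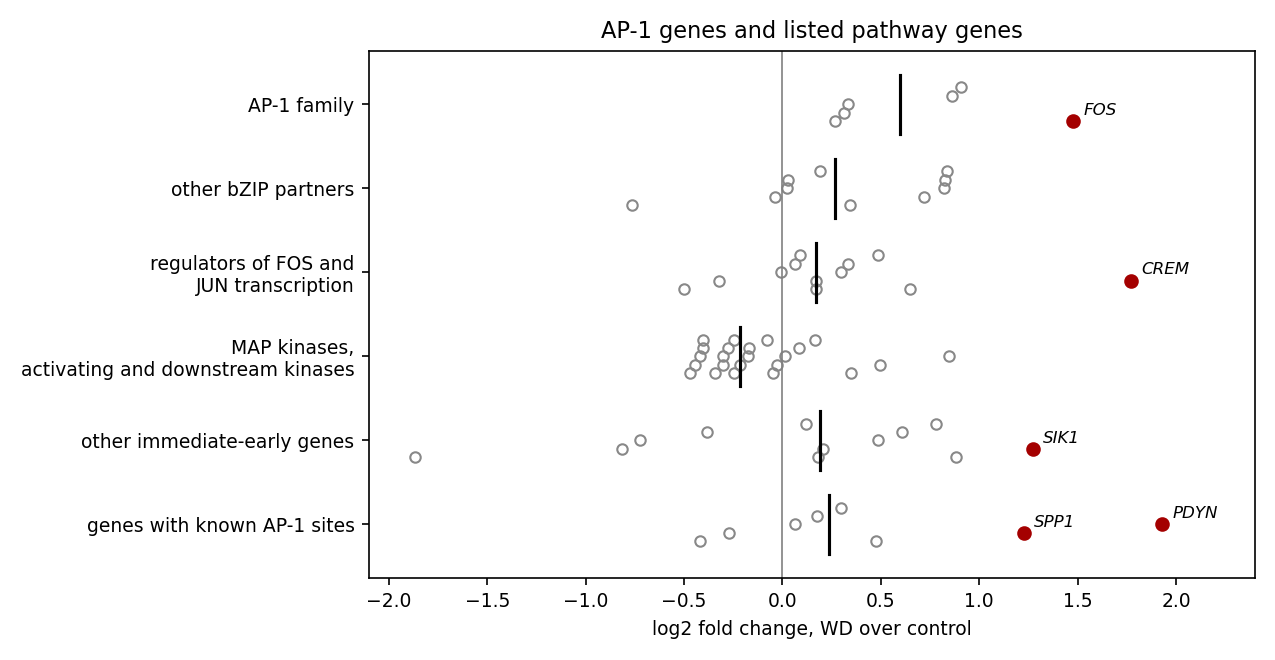
Log2 fold change, WD over control (horizontal axis), of the AP-1 genes and of the genes tested in 5 lists of related genes (rows). Each point is 1 gene, red and named where the adjusted p by edgeR was at most 0.05, and black bars are list medians. Besides FOS, at 1.48, the named genes are CREM, SIK1, SPP1 and PDYN, and the kinase list has the only median below 0, at -0.22.

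Some markers of cell types differed between the groups too. Of 8 magnocellular markers 5 were paired, of which PDYN (also on the list of genes with AP-1 sites), SCG2 and PCSK1 were higher. The transcription factor genes OTP and SIM1, the other two, were at -0.58 (unadjusted p = 0.0255, adjusted p = 0.454 by edgeR) and -0.04 on the log2 fold change scale. The summed level of the 5, most of it from PCSK1 and PDYN, was 1759 to 3118 normalized counts in control and 5665 to 10340 in WD libraries. AVP and OXT were not paired and are not analysed here. All 7 microglial markers paired (of 8) had log2 fold changes above 0, with a median of 0.90. All 7 had an unadjusted p under 0.05, against 9.31% of all genes, and none passed after adjustment by edgeR or by DESeq2. Their sum was 953 to 1529 in control and 1228 to 3653 in WD libraries, the highest in WD15. Of 6 fibroblast markers 3 were paired, with a sum of 441 to 681.6 in control and 334 to 428 in WD libraries, and COL1A1 was lower by edgeR, while DESeq2 called 2, COL1A1 and COL3A1. COL3A1 was at -0.86 (adjusted p = 0.0857 by edgeR and 0.00765 by DESeq2). None of the paired markers of astrocytes (2 of 8), the oligodendrocyte lineage (3 of 8) or endothelium (5 of 8) passed by edgeR or DESeq2. Of these, 2 of 2, 0 of 3 and 2 of 5 had an unadjusted p under 0.05, against 9.31% of all genes. They were ALDH1L1 at 0.55, GJA1 at 0.50, FLT1 at 0.62 and KDR at 0.64 on the log2 fold change scale. Those of the neighbouring suprachiasmatic nucleus (4 of 4 paired) had too few counts to be tested, their sum being at most 27.7. No paired marker was at 0 in every library. The part of these cell types in the rise of FOS was not tested.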

How the data were processed

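Reads were trimmed by the authors (BBDuk) and aligned with STAR to Camdro2, and FeatureCounts gave the read pairs of each gene. The deposited counts are whole numbers without normalization, 1 column per camel. The authors also deposited normalized values (a signal per gene), each count divided by DESeq2's size factor of its library. The largest relative departure from 1 factor per library was 5.4e-10. The annotation release, the strand setting and the treatment of shared read pairs are not given in the sources used here.

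Members, lists and tests were chosen with earlier results of these data known. The paper's supplementary tables gave symbols for 4351 of 22444 IDs. No genome of Camdro2 was used, and neither coordinates nor sequences are given. Named were all members, and of each list the genes past the threshold and the 3 others with the highest mean CPM. For likeness they were 5 genes for FOS and 3 for each other member. JDP2, BATF and TMED10 were named for their position, and ARC, NR4A2 and 7 marker genes after their values were seen. Some results on genes that this rule names are not reported here.

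WD and control libraries were compared on the counts with edgeR 4.0.16 (robust quasi-likelihood fit, TMM, filterByExpr by group) in R 4.3.3. SE is the log2 fold change divided by the square root of F. Python 3.11.15 with scipy 1.17.1 gave the exact permutation tests and Poisson intervals. The fit was tested on simulated counts. Alternatives were DESeq2 1.42.0, other scalings, filters and pseudocounts, a fit that is not robust, RIN (from the study's library information) or depth group as a covariate, and libraries left out.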

Additional observations from a re-analysis of the deposited data

Results flagged for a closer look

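In 46 groups of 5 libraries, 23 named genes in each condition, the gap between the most extreme library and its neighbour was compared with the group's whole range on the log2 scale. No AP-1 gene stood out. In 4 groups 1 library did, where chance gives about 1 in 20. CREM in CON13 was low among control libraries, with a gap of 0.841 of the range, and rested there on 1 read pair. HMOX1 in CON13 was low and apart from the other control libraries, with a gap of 0.724, and in WD6 it was high and apart from the other WD libraries, with a gap of 0.856. PLAU in CON2 was high and apart from the other control libraries, with a gap of 0.736.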

How the results depend on the processing

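No paired analysis was possible because the labels of the 2 groups share no replicate number. The log2 fold changes of the 6 AP-1 genes were above 0 under all 10 alternatives of the fit that gave a value and with each library left out, except that of FOSB, which ranged from -0.03 (without WD6) to 0.64 with 1 library left out. JUNB was at 0.036 with RIN and 0.049 without WD15, and JUN at 0.15 and 0.14, while FOSB was at 0.15 with RIN. FOSL1 was at 0.56 without WD6. PER1 was at 0.20 without the 2 shallowest libraries, and HMOX1 at 0.17 without WD6 and 0.18 without CON13. FOSL1 and JUNB gave no value with at least 10 counts in every library. FOS kept its call whichever library was left out (1.32 to 1.59), and lost it with library totals only, at 1.62. FOSL2 passed with depth group as a covariate, at 1.07, so that 2 members were then called, against 0 with library totals only.

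With library totals only, 0 regulators, 0 immediate-early genes and 1 gene with AP-1 sites were called, and with at least 10 counts in every library 0 regulators, since CREM was filtered out. Under DESeq2, RIN and depth group, 1 bZIP partner (ATF4) was called. Of the immediate-early genes, DESeq2 called 2 (SIK1 higher and ARC lower), and 0 were called with totals outside the 5 dominant IDs, with RIN or without the 2 shallowest libraries. With 1 library left out, 0 to 1 immediate-early genes (SIK1, kept only without WD7) and 1 to 2 genes with AP-1 sites were called. SPP1 was lost without CON2, CON3, CON4, CON13, WD7, WD8 or WD9 (adjusted p up to 0.0863 by edgeR). In all, edgeR called 72 genes, DESeq2 209, depth group as a covariate 224 and library totals only 10, and edgeR called 40 (without CON3) to 102 (without WD6) with 1 library left out.

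With 1 library left out, the shift of FOS was 0.90 to 1.29 over JUN, 0.87 to 1.49 over FOSB and 0.82 to 1.31 over JUNB. It passed over FOSB without WD6 and over JUNB without CON13. Without both, it passed over FOSB at 1.18 and over JUNB at 1.23.

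Genes near 0 changed sign. With depth group, ATF2 was at -0.068, MEF2D at 0.046, MAP2K1 at -0.019 and PENK at -0.010. ATF7 was at -0.039 with RIN and -0.19 without the 2 shallowest libraries, MAP2K1 at -0.16 without them and -0.011 with totals outside the dominant IDs. MEF2D was at 0.12 with library totals, 0.017 without a filter and 0.0030 with at least 10 counts. With 1 library left out, ATF2 ranged from -0.075 to 0.14, ATF7 from -0.14 to 0.14, MEF2D from -0.10 to 0.075, MAP2K1 from -0.090 to 0.090 and PENK from -0.35 to 0.28. The causes of these changes were not tested. Depth limits FOSL1 and every level in CON13 most.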
